A study of Homo sapiens with 6 samples.

Results

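Expression of 9 genes of the NRF2 antioxidant response was measured in 8505C, a cell line derived from an anaplastic thyroid carcinoma, by sequencing of polyadenylated RNA. The genes were taken by symbol from a deposited table of 33539 genes, namely NFE2L2, KEAP1, NQO1, HMOX1, GCLC, GCLM, TXNRD1, SRXN1 and OSGIN1, and each of the 9 was found once. Cells had received an siRNA against POLR1F (siPOLR1F, 3 libraries) or a negative control siRNA (NC, 3 libraries) for 24 h. Both groups are the same line, grown in medium with 10% fetal bovine serum, and no other allele or agent is named for either. POLR1F belongs to RNA polymerase I, which makes ribosomal RNA, and the study asked which genes depend on it. Nothing in the labels tells if each library had its own culture, so the p-values reflect library-to-library spread, and that may be technical. All libraries carry 1 batch label.

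NRF2, the protein encoded by NFE2L2, is a transcription factor that pairs with small MAF proteins and binds antioxidant response elements (AREs) near genes that detoxify electrophiles and peroxides. In unstressed cells KEAP1 binds NRF2 and hands it to a CUL3 ubiquitin ligase for degradation, so that control acts mainly on the protein and the level of its targets is the usual transcript readout of its activity. Several of these targets supply the 2 thiol systems of the cell, glutathione and thioredoxin.

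The libraries held from 60576788 to 63038378 counts. Mitochondrially encoded genes took 4.32% to 4.85% of the counts in siPOLR1F libraries and 4.93% to 5.15% in NC libraries, and the part of this shift in the results below was not tested. POLR1F itself averaged 1.67 ± 0.368 FPKM in siPOLR1F libraries and 8.28 ± 0.592 FPKM in NC libraries (SD, n = 3 each; FPKM is a count scaled to gene length and library depth), with a log2 fold change of -2.30 and an edgeR adjusted p = 9.76e-05. Of the thyroid markers, NKX2-1 was at 27.5 FPKM in siPOLR1F and 45.2 FPKM in NC and HHEX at 4.38 and 4.88 FPKM in the same order. PAX8 (0.49 and 0.54 FPKM) and FOXE1 (0.20 and 0.21 FPKM) were low, and TG, TSHR and SLC5A5 were at or near 0 in both groups. The epithelial keratin KRT18 (146 FPKM in siPOLR1F, 162 FPKM in NC) and the mesenchymal filament VIM (674 and 671 FPKM in the same order) were both abundant. KRT8 (98.0 and 117 FPKM) and FN1 (38.3 and 52.2 FPKM) were high too. The epithelial markers CDH1 (0.036 and 0.028 FPKM) and EPCAM (0.64 and 0.76 FPKM) were low. Of 8 mesenchymal markers 3 reached 1 FPKM in any library, and DCN (0.016 and 0.032 FPKM) and PDGFRB (0.20 and 0.29 FPKM) did not. The summed FPKM of 9 thyroid markers was 31.1 to 34.5 in siPOLR1F and 47.3 to 52.9 in NC, and that of 6 epithelial markers 228 to 259 in siPOLR1F and 268 to 301 in NC. Of 3 immune markers, PTPRC did not exceed 0.00907 FPKM in any library, while CD68 averaged 12.9 FPKM in siPOLR1F and 9.33 FPKM in NC and CD14 1.57 FPKM in both (sums 11.4 to 17.6 in siPOLR1F, 9.08 to 14.0 in NC). The sum of 3 endothelial markers, mostly CDH5, was 2.36 to 4.79 in siPOLR1F and 5.62 to 6.75 in NC. The part of these markers in the results was not tested. In such bulk samples fewer cells of a type and less RNA per cell cannot be told apart.

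The sequence that NRF2 recognises was looked for in 300 bases around a RefSeq start of each gene (GRCh38.p14), 250 before and 50 after it. Such a promoter entry existed for 8 of the 9 members, all but HMOX1. For GCLC, NFE2L2 and OSGIN1 this start lies inside the locus whose coordinates are given below, not at its edge. The motif TGACNNNGC, on either strand, occurred in GCLM and TXNRD1, and in 13.6% of 27305 promoters. Its variant TGAGNNNGC occurred in GCLM, NFE2L2, NQO1 and OSGIN1, and in 18.4% of all promoters. Neither form occurred in this window of KEAP1, GCLC or SRXN1. The 4 sequences below are from TXNRD1, GCLM and OSGIN1, which are 3 of the 4 members whose groups did not overlap in level. The match of GCLM to TGAGNNNGC, at bases -8 to 1, is not shown. Capitals mark the motif, and each sequence is written 5′ to 3′ on the strand that holds it.
TXNRD1 (chr12:104215670-104215698, plus strand, bases -99 to -91 from the RefSeq start): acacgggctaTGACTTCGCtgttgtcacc
TXNRD1 (chr12:104215761-104215789, minus strand, bases -8 to 1): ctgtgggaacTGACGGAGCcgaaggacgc
GCLM (chr1:93909446-93909474, plus strand, bases -34 to -26): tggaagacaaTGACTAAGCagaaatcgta
OSGIN1 (chr16:83953131-83953159, minus strand, bases -99 to -91): ttcataagcgTGAGTCAGCaggggcccgt
In OSGIN1 the motif overlaps the AP-1 motif TGANTCA, which 7.76% of all promoters hold and no other of these 8 does. A match describes the letters in the window and was not measured as a binding site in these cells.

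The 9 genes differed widely in level. TXNRD1, which encodes cytosolic thioredoxin reductase, averaged 100.2 ± 2.74 FPKM in siPOLR1F libraries and 110.6 ± 1.57 FPKM in NC libraries (SD, n = 3 each), above 97.8% and 98.1% of the 13564 tested genes in the same order. It alone made up 42.6% to 42.7% of the summed FPKM of the 9 genes in siPOLR1F libraries and 45.3% to 46.4% in NC libraries. SRXN1 (49.2 ± 0.866 FPKM in siPOLR1F, 44.0 ± 1.18 FPKM in NC) and NQO1 (43.1 ± 3.35 and 45.7 ± 2.25 FPKM in the same order) came next, followed by KEAP1, HMOX1, NFE2L2, GCLM and GCLC. OSGIN1 was lowest, above 23.6% of tested genes in siPOLR1F and 25.6% in NC. Among neighbours in this order, the libraries of HMOX1 and NFE2L2 overlapped in siPOLR1F, and those of NQO1 and SRXN1 and of NFE2L2 and GCLM overlapped in NC. All other neighbours were separate. Within a group the SD of a member was at most 9.12% of its mean, which was for NFE2L2 in NC.

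**Figure D1:**
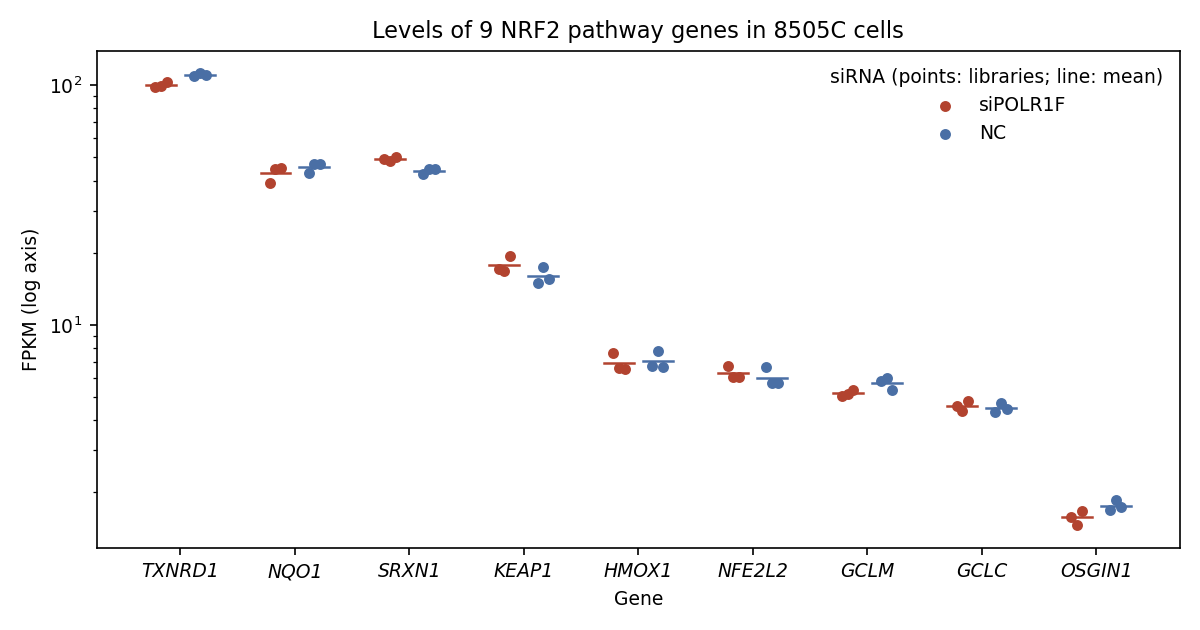
FPKM (log axis) of each of the 9 genes in the 3 siPOLR1F libraries (red) and 3 NC libraries (blue), with a line at each group's mean. Levels run from under 2 FPKM for OSGIN1 to about 100 FPKM for TXNRD1, and the groups lie close together for every gene.

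Of the 9 members, 1 rose after POLR1F silencing, SRXN1, and the other 8 did not pass the test (edgeR quasi-likelihood test, Benjamini-Hochberg adjustment over all genes tested, threshold 0.05). Over all 13564 genes tested, 10.3% were higher and 6.94% lower, 17.2% in all, so that 1 of 9 is near the background. Without NC replicate 3 or any single siPOLR1F library the higher genes numbered 730 to 898 in place of 1391 and the lower genes 423 to 539 in place of 942. By the edgeR test above none of the 9 fell, though TXNRD1 had an unadjusted p of 0.0109. DESeq2, which called 23.0% of all genes, called TXNRD1 lower. So did edgeR scaled to total counts only, which called 17.7%, and edgeR among genes averaging 5 FPKM or more, which called 27.9%. The log2 fold changes of the 9 ran from -0.16 (OSGIN1) to 0.17 (SRXN1) with a median of -0.025, against -0.014 over all genes, and their median size was 0.14, against 0.17 over all genes. The siPOLR1F and NC libraries did not overlap in FPKM for 4 of the 9, TXNRD1, SRXN1, GCLM and OSGIN1, as for 37.9% of all genes tested. Of these 4, SRXN1 was higher and the other 3 lower in siPOLR1F.

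**Figure D2:**
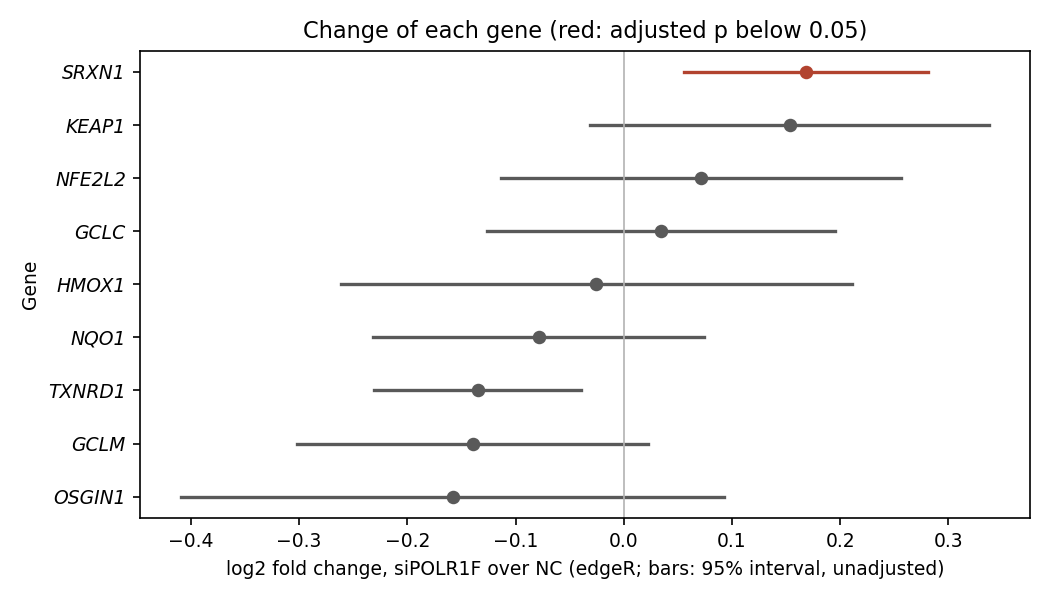
Log2 fold change of each gene, siPOLR1F over NC, with its 95% interval from the edgeR fit (not adjusted for the number of genes). SRXN1 (red, 0.17) is the only gene past the adjusted threshold, and the intervals of TXNRD1 and SRXN1 are the ones that do not reach 0.

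NFE2L2 (ENSG00000116044, chromosome 2, 177218667 to 177392697, minus strand, GRCh38), the gene of NRF2 itself, had 6.74, 6.08 and 6.08 FPKM in siPOLR1F libraries, against 6.67, 5.72 and 5.71 FPKM in NC libraries. Replicate 1 was the highest of each group, and the groups overlapped. The log2 fold change was 0.071 (SE 0.081; 95% interval -0.11 to 0.26; edgeR adjusted p = 0.582). The end of NFE2L2 overlaps HNRNPA3 on the other strand, whose counts were 595% of its own, and the strand setting of the counting is not given in the sources used here, so reads in the overlap may be divided between them.

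KEAP1 (ENSG00000079999, chromosome 19, 10486125 to 10503356, minus strand), the adaptor that presents NRF2 for degradation, had 17.1, 16.8 and 19.3 FPKM in siPOLR1F libraries and 15.0, 17.4 and 15.6 FPKM in NC libraries. NC replicate 2 lay above 2 of the siPOLR1F libraries. The log2 fold change was 0.15 (SE 0.081; 95% interval -0.031 to 0.34; edgeR adjusted p = 0.227). The FPKM ratio of NFE2L2 to KEAP1 was 0.395, 0.363 and 0.315 in siPOLR1F libraries, against 0.444, 0.328 and 0.366 in NC libraries. The ratios overlapped between the groups (difference of mean log2 ratios -0.080; exact two-sided permutation p = 0.6), and this difference was 0.040 without NC replicate 1 and 0.0086 without siPOLR1F replicate 3, so its direction rests on single libraries.

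GCLC and GCLM encode the catalytic and the modifier subunit of glutamate-cysteine ligase, the first enzyme of glutathione synthesis. GCLC (ENSG00000001084, chromosome 6, 53497341 to 53616970, minus strand) had 4.57, 4.38 and 4.82 FPKM in siPOLR1F libraries and 4.32, 4.74 and 4.46 FPKM in NC libraries. These overlapped (log2 fold change 0.035; SE 0.070; 95% interval -0.13 to 0.20; edgeR adjusted p = 0.774). GCLM (ENSG00000023909, chromosome 1, 93885199 to 93909456, minus strand) had 5.04, 5.15 and 5.34 FPKM in siPOLR1F libraries and 5.84, 5.98 and 5.37 FPKM in NC libraries. The siPOLR1F libraries were all below the NC libraries, but the gap between siPOLR1F replicate 3 and NC replicate 3 was slight. By depth alone the gap was there, with 2010 of 62933468 counts in siPOLR1F replicate 3 and 2025 of 62385310 in NC replicate 3. It was not there in CPM, counts scaled to depth and to edgeR's TMM factor (-0.024 and -0.027 log2 from the gene's mean, in that order). These factors were 0.986 for siPOLR1F replicate 3 and 1.005 for NC replicate 3. The difference of -0.14 on the log2 scale (SE 0.071; 95% interval -0.30 to 0.023) did not pass (edgeR adjusted p = 0.211).

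The FPKM ratio of GCLC to GCLM was 0.907, 0.852 and 0.903 in siPOLR1F libraries, against 0.740, 0.793 and 0.830 in NC libraries. Each siPOLR1F ratio was above each NC ratio, with means of 0.887 ± 0.0309 and 0.788 ± 0.0456 in that order (SD, n = 3 each). The difference of mean log2 ratios was 0.17 (exact two-sided permutation p = 0.1, the smallest that 3 against 3 libraries allow), which does not pass, and other gene pairs were not compared.

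**Figure D3:**
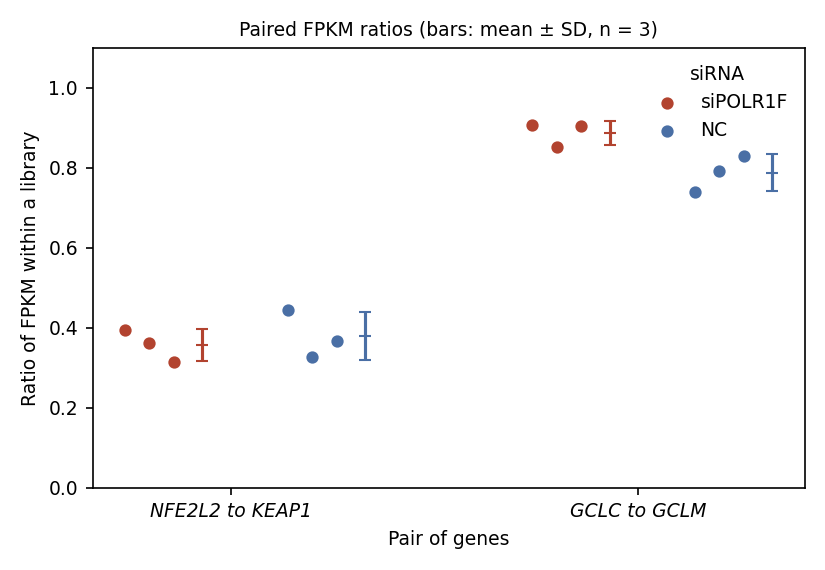
FPKM of NFE2L2 over that of KEAP1 and of GCLC over that of GCLM, per siPOLR1F library (red) and NC library (blue), with the mean and SD of each group. The NFE2L2 to KEAP1 ratios overlap between 0.315 and 0.444, while the GCLC to GCLM ratios of siPOLR1F libraries (0.852 to 0.907) all lie above those of NC libraries (0.740 to 0.830).

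SRXN1 and TXNRD1 act in the thioredoxin branch. SRXN1 (ENSG00000271303, chromosome 20, 646615 to 653200, minus strand) encodes sulfiredoxin, which restores overoxidised peroxiredoxins. It had 49.3, 48.3 and 50.01 FPKM in siPOLR1F libraries, from 8638, 8583 and 8767 counts, and 42.7, 44.6 and 44.8 FPKM in NC libraries, from 7594, 7609 and 7866 counts. The lowest siPOLR1F library stood above the highest NC library, and the log2 fold change was 0.17 (SE 0.050; 95% interval 0.055 to 0.28), a level 11.8% above NC. The edgeR adjusted p was 0.0495 and the exact two-sided permutation p 0.1, the smallest possible. The call was lost whichever single library was left out: the adjusted p was 0.0962, 0.0724 and 0.105 without NC replicate 1, 2 and 3 and 0.134, 0.0975 and 0.1503 without siPOLR1F replicate 1, 2 and 3, within 0.0244 to 0.1503 over its 14 alternatives, of which it passed 3.

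TXNRD1 (ENSG00000198431, chromosome 12, 104215779 to 104350307, plus strand) had 97.8, 99.4 and 103.2 FPKM in siPOLR1F libraries, against 108.9, 112.0 and 110.7 FPKM in NC libraries. The counts behind them ran from 45511 to 48017 in siPOLR1F and from 50781 to 51592 in NC, so each siPOLR1F library lay below each NC library. The log2 fold change was -0.14 (SE 0.042; 95% interval -0.23 to -0.040), 90.6% of the NC level, with an edgeR adjusted p = 0.0581. It passed in 3 of 14 alternatives, as lower, with total counts only (0.0344), with DESeq2 (0.0463) and among genes averaging 5 FPKM or more, of which 27.9% were called (0.0179, the lowest; the highest was 0.232). SRXN1 and TXNRD1 had the smallest adjusted p-values of the 9 and differences of opposite sign. A pseudogene inside TXNRD1, RPL18AP3, took counts that came to 11.2% of those of TXNRD1 and differed by 0.0069 on the log2 scale between siPOLR1F and NC (edgeR adjusted p = 0.958).

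The remaining 3 members did not pass, and 2 of them overlapped between the groups. NQO1 (ENSG00000181019, chromosome 16, 69706996 to 69726584, minus strand), the quinone reductase often used as the standard readout of NRF2, had 39.2, 44.8 and 45.2 FPKM in siPOLR1F libraries and 43.1, 47.1 and 46.9 FPKM in NC libraries. Replicate 1 was the lowest of each group, and the log2 fold change was -0.079 (SE 0.067; 95% interval -0.23 to 0.074; edgeR adjusted p = 0.453). HMOX1 (ENSG00000100292, chromosome 22, 35380361 to 35394214, plus strand), the inducible heme oxygenase, had 7.63, 6.58 and 6.55 FPKM in siPOLR1F libraries and 6.76, 7.80 and 6.68 FPKM in NC libraries. The highest library of each group, siPOLR1F replicate 1 and NC replicate 2, stood apart from the rest, and the log2 fold change was -0.025 (SE 0.10; 95% interval -0.26 to 0.21; edgeR adjusted p = 0.896). OSGIN1 (ENSG00000140961, chromosome 16, 83931311 to 83966332, plus strand), a growth inhibitor induced by oxidative stress, had 1.58, 1.46 and 1.68 FPKM in siPOLR1F libraries and 1.69, 1.86 and 1.74 FPKM in NC libraries. The groups did not overlap but all but touched, at 1.68 and 1.69 FPKM, and the log2 fold change was -0.16 (SE 0.11; 95% interval -0.41 to 0.093; edgeR adjusted p = 0.356). Its locus overlaps MLYCD on the same strand, whose counts were 27.6% of its own.

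**Figure D4:**
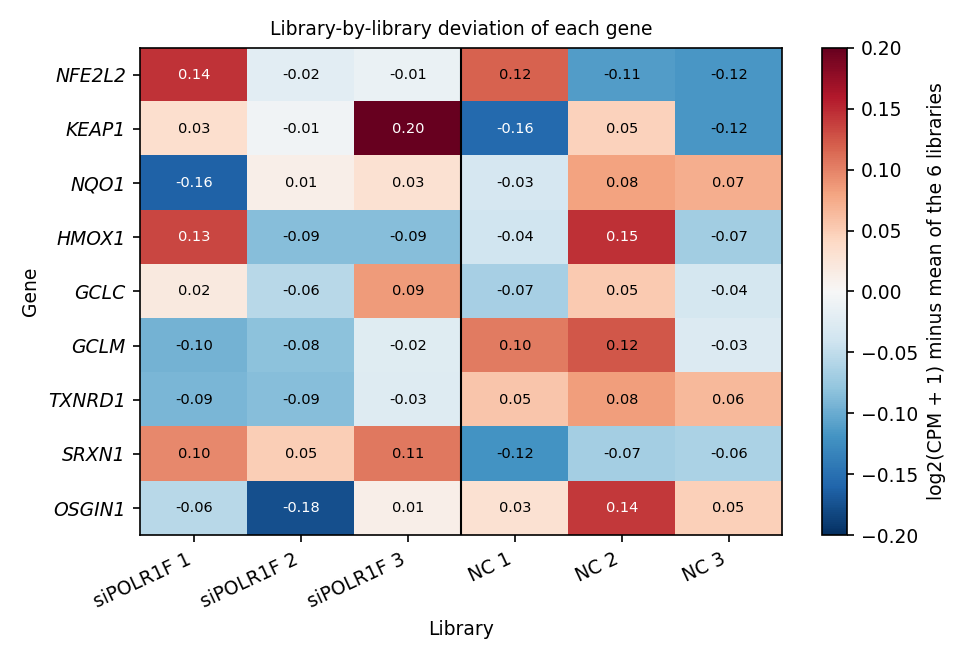
Deviation of each gene (rows) in each library (columns, siPOLR1F left of the line and NC right) from its own mean over the 6 libraries, as log2(CPM + 1). SRXN1 is above its mean in every siPOLR1F library and below it in every NC library, TXNRD1 the reverse, and NFE2L2 stands out by replicate 1 of each group (0.14 and 0.12).

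The genes whose levels varied most like NFE2L2 over the libraries were not members of the set. Likeness was measured as the root-mean-square difference between the mean-centred log2(CPM + 1) of 2 genes over the 6 libraries, among 3969 genes that averaged 10 FPKM or more or belong to the 9. Among the 5 genes most like NFE2L2 were ITPRID2 (0.0187), FXR1 (0.0267), MARCHF7 (0.0311) and FMNL2 (0.0317). These 4 were, like it, highest in replicate 1 of each group, which follows from how they were chosen. The nearest other member, SRXN1, ranked 716 (0.117), and NQO1 was the farthest at rank 2734 (0.179). This is a description of 6 libraries of 1 line.

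Neither TCGGAGA nor CCGACTT occurred in the longest protein-coding transcript (GENCODE 29) of any of the 9 members. These 7-base sequences had been picked on fold changes of these same libraries, and 11.3% and 7.72% of 11274 tested genes hold them in that order.

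Of 28 partners and regulators of NRF2, 25 could be tested, and 4 rose and 1 fell. Over all genes 17.2% were called (10.3% higher, 6.94% lower), so the share called in this list was near the background. NFE2L1, the related factor NRF1 that drives proteasome genes, was at 42.9, 46.3 and 46.6 FPKM in siPOLR1F libraries, against 27.4, 26.9 and 26.3 FPKM in NC libraries (log2 fold change 0.76; SE 0.051; edgeR adjusted p = 1.01e-04). SQSTM1, the autophagy receptor p62, which binds KEAP1 and is also a target of NRF2, rose by 0.47 to 48.9 ± 0.520 FPKM in siPOLR1F, against 35.5 ± 3.52 FPKM in NC (SD, n = 3 each; edgeR adjusted p = 0.00350). SQSTM1 overlaps MGAT4B on the other strand, whose counts were 55.3% of its own. The mitochondrial phosphatase PGAM5, a binding partner of KEAP1, rose by 0.43, and FBXW11, a receptor of another ubiquitin ligase for NRF2, fell by 0.18 on the log2 scale. PGAM5 lost its call without NC replicate 3, siPOLR1F replicate 2 or replicate 3 (adjusted p = 0.0582, 0.0503 and 0.0662, within 1.29e-04 to 0.0816 over its alternatives), and FBXW11 without NC replicate 2 or 3 or any siPOLR1F library (0.0763 to 0.121, within 0.0157 to 0.121). The list had 2 higher genes without NC replicate 3, siPOLR1F replicate 2 or replicate 3, and 0 lower without NC replicate 2 or 3 or any siPOLR1F library. CREBBP, a coactivator, was the remaining rise (0.40; edgeR adjusted p = 0.0392), and it lost its call when NC replicate 1, NC replicate 3 or any siPOLR1F library was left out (0.0542 to 0.130, within 0.00168 to 0.165 over its alternatives). CUL3 (0.066), the ligase of KEAP1, and the partners MAFG (0.19) and MAFK (-0.044) did not pass.

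Of 25 genes of glutathione synthesis, recycling and use, 21 could be tested, and 1 rose and 2 fell, with a median log2 fold change of -0.12. The share called was 14.3%, against 17.2% over all genes. SLC3A2, the heavy chain of the cystine and other amino acid transporters, rose by 0.68 to 55.0 ± 4.12 FPKM in siPOLR1F, against 34.4 ± 4.70 FPKM in NC (SD, n = 3 each; edgeR adjusted p = 0.00308). SLC7A11, the light chain that makes SLC3A2 a cystine transporter and a known target of NRF2, was at 7.05, 4.64 and 4.71 FPKM in siPOLR1F libraries, against 8.01, 6.32 and 4.84 FPKM in NC libraries, and did not pass (log2 fold change -0.22; edgeR adjusted p = 0.508). LANCL1, a glutathione-binding protein, fell by 0.39 (edgeR adjusted p = 0.00963), and GGT7, a member of the gamma-glutamyltransferase family, fell by 0.48 (edgeR adjusted p = 0.0346). GGT7 overlaps ACSS2 on the other strand, and its call ended without NC replicate 1 or 3 or any siPOLR1F library (0.0783 to 0.106, within 0.00600 to 0.106 over its alternatives). The lower count was then 1 without NC replicate 3 or any siPOLR1F library.

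Of 24 glutathione S-transferases and exporters of glutathione conjugates, 15 could be tested, 4 fell and none of the 15 rose by edgeR. The share called was 26.7%, against 17.2% over all genes (10.3% higher, 6.94% lower). At an unadjusted p under 0.05 the higher ones numbered 2, and DESeq2 called 0 higher. ABCC1, the exporter MRP1, had 6.21, 6.42 and 6.37 FPKM in siPOLR1F libraries, against 8.04, 8.79 and 8.92 FPKM in NC libraries (log2 fold change -0.43; SE 0.060; edgeR adjusted p = 0.00263). The microsomal enzymes MGST2 (-0.60) and MGST3 (-0.31) fell, as did GSTT2 (-1.97), whose value is uncertain because reads may be shared with its near copy GSTT2B (-0.43; edgeR adjusted p = 0.0675). MGST2 overlaps MAML3 on the other strand, whose counts were 639% of its own, and lost its call whichever single library was left out (0.0621 to 0.0960, within 0.00715 to 0.145 over its alternatives). MGST3 lost its call when NC replicate 1, NC replicate 3, siPOLR1F replicate 1 or siPOLR1F replicate 3 was left out (0.112 to 0.154, within 0.0165 to 0.154), and GSTT2 when NC replicate 1, NC replicate 3, siPOLR1F replicate 1 or siPOLR1F replicate 2 was left out (0.0513 to 0.0732, within 3.97e-04 to 0.108). The list had 1 or 2 lower genes without NC replicate 1, NC replicate 3 or any siPOLR1F library.

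Of 17 other genes of the thioredoxin system, 2 rose and 1 fell, so 17.6% were called, against 17.2% over all genes. Below 0 were 14 of the 17 log2 fold changes, as were 52.5% over all genes tested. PRDX4, the peroxiredoxin of the endoplasmic reticulum, had 68.0, 70.5 and 69.7 FPKM in siPOLR1F libraries, against 38.7, 39.5 and 38.8 FPKM in NC libraries (log2 fold change 0.84; SE 0.049; edgeR adjusted p = 7.13e-05). MSRB3, which reduces methionine sulfoxide, rose by 0.29 and PRDX3, the mitochondrial peroxiredoxin, fell by 0.29 (edgeR adjusted p = 0.0304 and 0.0110). MSRB3 lost its call when NC replicate 1, NC replicate 3, siPOLR1F replicate 2 or siPOLR1F replicate 3 was left out (0.0688 to 0.114, within 0.00504 to 0.114 over its alternatives), which left 1 higher gene, and without NC replicate 2 there were 2 lower. PRDX1, a target of NRF2 and a substrate of sulfiredoxin, was at 264 ± 13.6 FPKM in siPOLR1F and 268 ± 8.04 FPKM in NC and did not pass (log2 fold change -0.016).

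Of 21 enzymes that supply NADPH, 19 could be tested, and 1 rose and 3 fell. The share called was 21.1%, against 17.2% over all genes. ME1, the cytosolic malic enzyme, had 9.27, 9.36 and 10.4 FPKM in siPOLR1F libraries, against 6.68, 6.41 and 5.91 FPKM in NC libraries (log2 fold change 0.62; SE 0.080; edgeR adjusted p = 0.00188). IDH1, the cytosolic isocitrate dehydrogenase, had 10.5, 11.9 and 12.0 FPKM in siPOLR1F libraries, against 17.1, 16.2 and 18.4 FPKM in NC libraries (log2 fold change -0.58; SE 0.075; edgeR adjusted p = 0.00181). Both are known targets of NRF2 in some cells, and here they moved in opposite directions. Neither overlapped between the groups in FPKM, as for 37.9% of all genes tested. IDH2 (-0.51), the mitochondrial isocitrate dehydrogenase, also fell. IDH2 lost its call without NC replicate 3 or siPOLR1F replicate 1 or 3 (0.0716 to 0.0734, within 4.52e-04 to 0.0979 over its alternatives). The list had 3 higher genes without NC replicate 2 and 1 lower without siPOLR1F replicate 1 or 3.

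Of 19 genes of heme and iron handling, 17 could be tested and 0 passed by edgeR, which called 17.2% of all genes. At an unadjusted p under 0.05 there were 2 on the lower and 2 on the higher side. DESeq2, which called 23.0% of all genes, called 2 lower and 0 higher. The ferritin chains, known targets of NRF2, were at 1037 ± 30.9 FPKM in siPOLR1F and 987 ± 25.3 FPKM in NC for FTL (log2 fold change 0.079) and at 277 ± 14.0 FPKM in siPOLR1F and 273 ± 12.3 FPKM in NC for FTH1 (0.027). Without NC replicate 2 there was 1 higher and 1 lower gene, and without siPOLR1F replicate 3 there was 1 lower.

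Of 35 detoxification enzymes and other targets, 24 could be tested, and 4 rose and 3 fell, with a median log2 fold change of 0.0081. The share called was 29.2%, against 17.2% over all genes. The rises were PPARGC1B (0.91), a coactivator of mitochondrial genes, RXRA (0.35), a nuclear receptor, TRIM16L (0.38) and ENC1 (0.29), and the falls AKR1B1 (-0.23), ALDH3A2 (-0.21) and PTGR1 (-0.23), which reduce or oxidise reactive aldehydes and ketones. TRIM16L, a near copy of TRIM16, lost its call without NC replicate 1 or 2 or any siPOLR1F library (0.0549 to 0.0822, within 0.00300 to 0.0822 over its alternatives), and ENC1, uncertain where its reads lie in an overlap, without NC replicate 1 or 3 or any siPOLR1F library (0.0552 to 0.104, within 0.00275 to 0.104). AKR1B1 lost its call whichever library other than siPOLR1F replicate 2 was left out (0.0526 to 0.108, within 0.00845 to 0.108 over its alternatives), and ALDH3A2 (0.0630 to 0.119, within 0.0134 to 0.119) and PTGR1 (0.0730 to 0.132, within 0.0148 to 0.132) whichever library other than NC replicate 2. The list had 2 higher genes without NC replicate 1 or any siPOLR1F library, and 0 or 1 lower without NC replicate 3 or any siPOLR1F library.

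Of 16 superoxide and peroxide enzymes, 8 could be tested and 0 passed by edgeR, which called 17.2% of all genes. At an unadjusted p under 0.05 there was 1 on each side. DESeq2, which called 23.0% of all genes, called 1 higher and 1 lower. The most abundant were PARK7, at 78.9 ± 0.459 FPKM in siPOLR1F and 84.1 ± 2.06 FPKM in NC, and QSOX1, at 73.9 ± 4.50 FPKM in siPOLR1F and 78.0 ± 3.27 FPKM in NC (SD, n = 3 each). Without NC replicate 2 there was 1 higher gene and without siPOLR1F replicate 2 there was 1 lower.

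**Figure D5:**
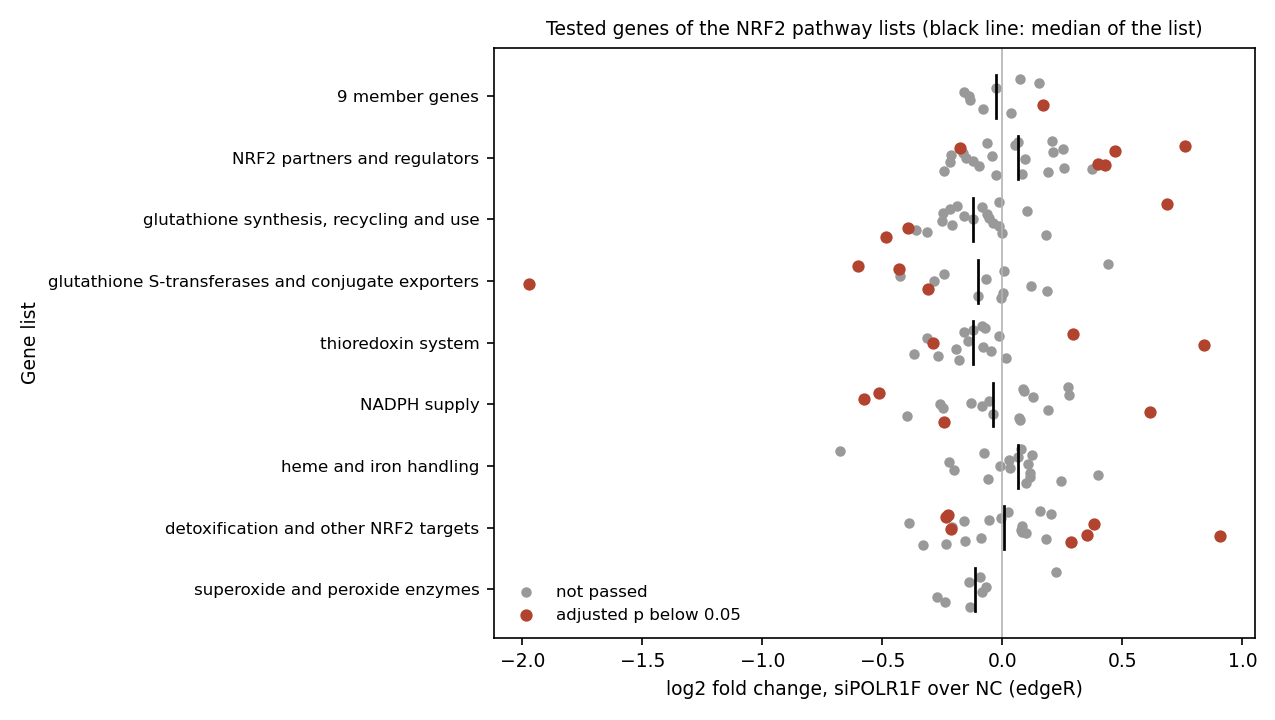
Log2 fold change, siPOLR1F over NC, of each tested gene in the 9 members and 8 further lists, with red points past the adjusted threshold and a black line at each list's median. The members sit between -0.16 and 0.17, and the widest rises in the other lists are PPARGC1B (0.91), PRDX4 (0.84) and NFE2L1 (0.76).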

How the data were processed

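Poly(A) RNA of 3 siPOLR1F and 3 NC libraries had been sequenced in pairs of reads. The authors deposited counts and FPKM per gene; the submitters' processing notes name fastp, HISAT2, StringTie and GRCh38, while their versions, the annotation and the strand setting are not stated there. Counts were tested as deposited with edgeR 4.0.16 (TMM, quasi-likelihood, R 4.3.3) over the 13564 of 33539 genes that averaged 0.5 FPKM or more, with Benjamini-Hochberg adjustment and a threshold of 0.05. Deposited FPKM serve for levels and ratios. The SE is the log2 fold change divided by the root of F, and 95% intervals are unadjusted. Alternatives were DESeq2 1.42.0, other scaling, other filters, limma 3.58.1 on log2(FPKM + 1) and log2(FPKM + 0.1), a replicate block and leaving out each library.

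The members and lists were chosen with earlier results of these data known. Named genes are the members, POLR1F and, per list, up to 4 genes with the smallest adjusted p among those that passed, or the 2 with the highest mean FPKM where none did. CREBBP, CUL3, MAFG, MAFK, SLC7A11, GSTT2B, PRDX1, AKR1B1, ALDH3A2 and PTGR1 are named beside these and were chosen after their values were seen. Some genes that the rule names are not reported here. Promoters are from RefSeq (GRCh38.p14) and transcripts from GENCODE 29. Counting error is largest for OSGIN1, which had 572 to 700 counts, and next for HMOX1, which had 1049 to 1222.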

Additional observations from a re-analysis of the deposited data

How the results depend on the processing

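Without the filter on low values 663 genes were higher and 313 lower, against 1391 and 942, and leaving out 1 library gave 730 to 1326 higher and 423 to 841 lower. SRXN1, the 1 member called higher, was not called (0 members higher) with total counts only, with limma at either pseudocount, without the filter, with the replicate block, or whichever single library was left out (0 in each). The members called lower numbered 1, TXNRD1, with DESeq2, with total counts only and at a mean FPKM of at least 5, where 23.0%, 17.7% and 27.9% of all genes were called in that order, and 0 whichever single library was left out. The causes were not tested. Leaving out 1 library gave log2 fold changes of -0.11 to 0.052 for HMOX1, -0.0012 to 0.073 for GCLC and -0.0062 to 0.065 for FTH1, and a difference in the log2 ratio of NFE2L2 to KEAP1 of -0.18 to 0.040, so these had no stable sign. Replicate numbers matched the libraries only in part: siPOLR1F and NC libraries of the same number correlated at 0.389, -0.180 and 0.298 in their deviations. For siPOLR1F replicates 1 and 3 the NC library of the same number correlated best, while siPOLR1F replicate 2 correlated best with NC replicate 3 (0.331). The labels state no pairing. With the replicate block 1517 genes were higher and 1125 lower, and SRXN1 had an adjusted p of 0.0692. GCLC, OSGIN1 and POLR1F have no value at a mean FPKM of at least 5.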
